A study of Mus musculus with 4 samples.

Results

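The baseline transcript profile of the mouse hypothalamus was read from a single array of sham-injected control animals. The array was taken by its label, and all 19938 genes with a probe set of exactly 1 gene symbol were used, so the profile covers 19938 genes of 19938 and 1 array of 4. It held RNA pooled in equal amounts from 4 male CDF1 mice, a cross of BALB/c and DBA/2, aged 10 to 11 weeks. These controls had been injected under the skin with 0.2 ml of Hanks' balanced salt solution and were killed on day 20. The other 3 arrays of the pilot study held hypothalami of mice bearing C26 colon adenocarcinoma. They enter here through the choice of probe set, a check of ranks and the processing that brings all arrays to a common distribution. The gene lists were also chosen with earlier results of these data known. RNA was pooled before hybridization, so the spread between animals was not measured and no value below carries an SD or a test.

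The hypothalamus is a small region at the base of the brain that governs feeding, water balance, temperature, reproduction and the pituitary. Its neurons are marked by neuropeptides, which are cut from larger precursors, stored in dense-core granules and act on G protein-coupled receptors. It borders the third ventricle, the thalamus, the optic tract and the pituitary stalk, so a dissection can hold tissue of these neighbours. In such a sample, fewer cells of a type and less RNA per cell cannot be told apart.

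Every value is a log2 expression value of 1 probe set, and its percentile is its rank among the 19938 genes, with the highest at 100. The median gene stood at 7.21 log2 and the top 10% of genes began at 9.75, with the lowest value at 2.52 and the highest at 14.04. Probe sets differ in how well they bind, so a percentile ranks signal and sets no order of transcript number between genes. Among the 999 genes with several probe sets, the highest and lowest probe set of a gene differed by a median of 0.81 log2 on this array, and by at least 1 log2 in 427 genes. Neighbours in the orders below that lie closer than this are not told apart. Only 14 of the listed genes had several probe sets, so for most members this spread could not be seen.

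A panel of 33 genes of liver, muscle, testis, pancreas, skin and other distant tissues gave a scale for signal that is not of the hypothalamus. The panel had a median of 5.52 log2 and its 90th percentile, called the off-tissue value here, was 6.11 log2. Albumin (Alb) stood at 5.59 log2, the testis gene Prm1 at 6.11 and the muscle actin gene Acta1, the highest of the panel, at 7.13. Over all genes, 66.1% lay above the off-tissue value and 10% in the top 10%, the latter by construction. Of 1027 olfactory receptor genes, which serve odour detection in the nose, 26 lay above it, led by Olfr1174 at 8.67 log2. Of 163 vomeronasal receptor genes, 0 did, and the highest, Vmn1r86, stood at 5.72. A gene under the off-tissue value is therefore described as not told apart from off-tissue signal, which does not show that its transcript was missing.

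Neuropeptide genes fell into a few of high signal and many near or under the array's median. Of 50 measured peptide genes of 52 listed, 37 lay above the off-tissue value, a share of 74% beside 66.1% over all genes. In the top 10% of genes stood 10 of them, or 20%, beside 10% over all genes. With the highest panel value, 7.13 log2, as the limit, the share was 44% beside 51.2% over all genes, so the peptide share lay above that of all genes at the first limit and under it at the second. The median peptide gene lay at percentile 47.2, slightly under the middle of the array. Agrp, the antagonist peptide of arcuate neurons, and Calca were not analysed here.

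The 4 feeding-promoting peptides of the top 10% were Hcrt, Pmch, Npy and Gal. Hcrt, the orexin precursor of lateral hypothalamic neurons that sustain wakefulness and feeding, stood at 11.46 log2 (percentile 98.8). Pmch, the precursor of melanin-concentrating hormone from a separate lateral population, stood at 11.40 log2 (percentile 98.7). Both genes are made almost only in the lateral hypothalamus and adjoining zona incerta, and they ranked 237 and 262 on the array. The span of Pmch overlaps that of Parpbp in the reference table. Npy, the feeding peptide of arcuate neurons that also occurs in cortical interneurons, stood at 10.32 log2 (percentile 94.7). Gal, the galanin gene of preoptic and other hypothalamic neurons, stood at 9.82 log2 (percentile 90.7), just inside the top 10%.

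The other orexigenic genes lay between percentile 28.9 and 49.2. Rln3, the relaxin-3 gene, stood at 7.16 log2, Npvf, the precursor of RFamide-related peptides of the dorsomedial nucleus, at 7.05 and Ghrl, the ghrelin gene, at 6.96. Npw stood at 6.81 log2, Nmb, the neuromedin B gene, at 6.58 and Qrfp, an RFamide peptide gene of the lateral hypothalamus, at 6.56. Galp, the galanin-like peptide gene of the arcuate nucleus, stood at 5.98 log2 and Npb at 5.76, both under the off-tissue value. Of the 12 measured orexigenic genes, 10 were above that value (83.3%, beside 66.1% over all genes). In the top 10% were 4 (33.3%, beside 10%). Above the highest panel value lay 5 of the 12, a smaller share than the 51.2% over all genes.

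Among anorexigenic peptide genes, 11 of 16 lay above the off-tissue value (68.8%, near the 66.1% over all genes) and 0 in the top 10%. With the highest panel value as the limit, 5 of the 16 lay above it, a smaller share than the 51.2% over all genes. Cartpt, whose peptide restrains feeding and is made in arcuate, paraventricular and lateral neurons, led with 9.39 log2 (percentile 85.8). Cck, the cholecystokinin gene, stood at 8.71 log2, Nucb2, the nesfatin precursor gene, at 8.39 and Grp, the gastrin-releasing peptide gene, at 8.17. Pomc, the precursor of the melanocortin peptides that act on Mc4r, stood at 7.19 log2 (percentile 49.8), at the middle of the array. Npff stood at 7.11 log2, Prlh at 7.01, Nppc at 6.93 and Nts, the neurotensin gene, at 6.77. Bdnf, a neurotrophin gene, stood at 6.34 log2 and Nms, a suprachiasmatic peptide gene, at 6.17, close to the off-tissue value. The urocortin genes Ucn, Ucn3 and Ucn2 (5.96, 5.90 and 5.59 log2), Nmu (5.49) and Gcg, the proglucagon gene (5.00), were under it.

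Hypophysiotropic and magnocellular peptides, which reach the pituitary, held 4 of their 10 measured genes in the top 10% (40%, beside 10%). Sst, the somatostatin gene, had the highest value of all listed peptides, at 11.76 log2 (percentile 99.2, rank 154). Somatostatin restrains growth hormone release and also marks interneurons outside the hypothalamus. Avp, the vasopressin gene, stood at 9.92 log2 (percentile 91.6) and Oxt, the oxytocin gene, at 9.77 (percentile 90.2). Both are made by magnocellular neurons of the supraoptic and paraventricular nuclei, whose axons end in the posterior pituitary. Adcyap1, the precursor of the peptide PACAP, stood at 9.89 log2 (percentile 91.4).

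Trh, the thyrotropin-releasing hormone gene, followed at 9.45 log2 (percentile 86.5) and Ghrh, the growth hormone-releasing hormone gene of the arcuate nucleus, at 8.34 (percentile 69.4). Gnrh1, made by a few scattered preoptic neurons that drive reproduction, stood at 7.12 log2, Cort at 6.77 and Kiss1, which excites those neurons, at 6.58. Crh, the paraventricular peptide that starts the adrenal stress response, stood at 5.28 log2 (percentile 22.1). It was the 1 gene of this list under the off-tissue value, and its signal lay inside the range of liver and muscle genes.

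Other neuropeptides showed the same split. Penk, the enkephalin precursor, stood at 11.27 log2 (percentile 98.4) and Tac1, the substance P precursor, at 10.02 (percentile 92.4). Tac2, the neurokinin B gene of arcuate neurons that pace reproductive hormones, stood at 9.70 log2 (percentile 89.4), just outside the top 10%. Apln stood at 7.85 log2, Pnoc, the nociceptin precursor gene, at 7.39, Pdyn, the dynorphin precursor gene, at 7.30 and Edn3 at 6.97. The suprachiasmatic peptides Vip (5.89 log2) and Prok2 (5.72) were under the off-tissue value, as were Calcb (5.43), Adm (5.35) and Nps (4.24), the last a brainstem peptide.

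**Figure D1:**
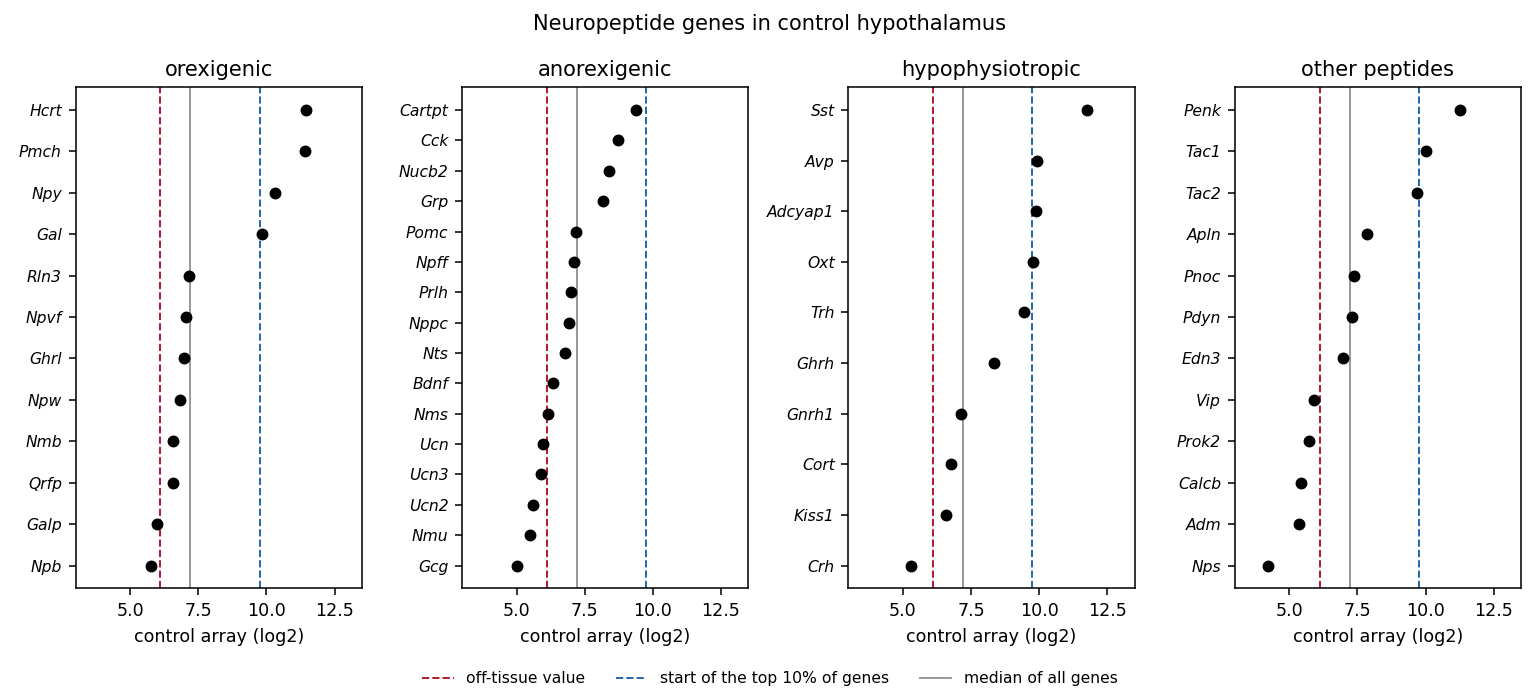
Control-array values (x axis, log2, 1 point a gene) of the measured genes of 4 peptide lists. Sst, Hcrt, Pmch and Penk stand above 11 log2, whereas Crh, Vip and Gcg lie left of the dashed off-tissue value at 6.11.

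Promoters are shown for Sst, Hcrt and Pmch, as the leading peptides with an entry in the RefSeq table, and for Vip as a peptide gene under the off-tissue value. Each runs 5′ to 3′ on the gene's strand from 250 bases before to 50 after the annotated start in GRCm38.p6. Capitals mark a TATA box (TATAAA) or a cAMP response element (TGACGTCA), searched on both strands.
Sst, minus strand of chr16:23890795-23891094: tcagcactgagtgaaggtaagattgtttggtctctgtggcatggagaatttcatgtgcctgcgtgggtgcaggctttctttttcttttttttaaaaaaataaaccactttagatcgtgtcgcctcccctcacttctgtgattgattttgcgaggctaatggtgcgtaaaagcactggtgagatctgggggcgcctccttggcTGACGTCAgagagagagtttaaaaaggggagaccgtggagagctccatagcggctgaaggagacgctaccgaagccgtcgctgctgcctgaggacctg
Hcrt, minus strand of chr11:100762882-100763181: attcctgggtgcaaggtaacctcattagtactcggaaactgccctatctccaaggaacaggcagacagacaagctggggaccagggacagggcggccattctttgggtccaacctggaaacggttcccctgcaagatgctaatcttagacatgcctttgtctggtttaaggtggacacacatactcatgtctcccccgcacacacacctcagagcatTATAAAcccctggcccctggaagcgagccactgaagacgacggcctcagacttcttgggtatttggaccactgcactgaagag
Pmch, plus strand of chr10:88090822-88091121: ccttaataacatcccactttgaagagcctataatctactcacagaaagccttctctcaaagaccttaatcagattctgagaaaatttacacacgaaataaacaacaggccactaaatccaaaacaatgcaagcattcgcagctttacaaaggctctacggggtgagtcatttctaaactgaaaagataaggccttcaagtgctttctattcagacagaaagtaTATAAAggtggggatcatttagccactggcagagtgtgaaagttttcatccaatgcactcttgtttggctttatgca
Vip, plus strand of chr10:5638968-5639267: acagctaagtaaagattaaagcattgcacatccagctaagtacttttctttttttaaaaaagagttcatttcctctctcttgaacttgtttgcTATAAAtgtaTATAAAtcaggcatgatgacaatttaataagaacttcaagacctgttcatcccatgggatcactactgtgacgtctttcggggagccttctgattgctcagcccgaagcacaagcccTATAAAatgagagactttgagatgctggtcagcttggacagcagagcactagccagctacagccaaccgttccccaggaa

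The TATA box of Hcrt began 33 bases before the annotated start, that of Pmch 27 bases before it and the nearest of 3 in Vip 30 bases before it. The element of Sst began 48 bases before the start. Promoters on a single chromosome were left out of the search, so the counts do not cover every gene of the table. Of 40 peptide genes with a promoter searched, 12 held TATAAA (30%), beside 15.7% of all 27025 genes searched. TGACGTCA was held by 3 of the 40, namely Cartpt, Sst and Ucn (7.5%), beside 2.03% of all genes searched. The letters occurred at both ends of the signal range. TATAAA was held by 3 of 9 peptide genes of the top 10% and by 4 of 9 under the off-tissue value. A match is a description of the letters and not of a site in use.

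Genes that cut and store peptide precursors had high signal as a list. All 15 measured genes of 16 lay above the off-tissue value and 9 in the top 10% (60%, beside 10% over all genes). Their median was 9.93 log2 (percentile 91.7). Pcsk1n, which encodes proSAAS, an inhibitor of the convertase PC1, stood at 12.30 log2 (percentile 99.7). Cpe, the carboxypeptidase that trims the cut peptides, stood at 11.72 log2 and Chga, the granule protein chromogranin A, at 11.57. Cadps, needed for granule release, stood at 10.76 log2, Pam, which amidates peptide ends, at 10.69 and Scg3, a granule sorting protein gene, at 10.54. The convertase gene Pcsk1 stood at 9.81 log2 (percentile 90.6). The lowest were Vgf at 8.72 log2, Qpct at 8.33, Furin at 8.06 and Cadps2 at 8.02, all over the array's median. The members of this list serve neurons of many brain regions, not of the hypothalamus alone.

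Receptors for peptides and hormones lay mostly in the middle of the array. Of 74 measured genes, 61 were above the off-tissue value (82.4%, beside 66.1% over all genes) and 4 in the top 10% (5.41%, beside 10%). In the list for appetite and metabolic signals, 33 of 39 were above it and the median was 7.56 log2 (percentile 55.6). Ntrk2, the BDNF receptor of neurons and astrocytes, stood at 11.17 log2 (percentile 98.1) and Ntsr2, a neurotensin receptor known from astrocytes, at 10.61 (percentile 96.2). The span of Ntsr2 overlaps that of Lpin1 in the reference table. Receptors for adiponectin, insulin and insulin-like growth factor came next. The adiponectin receptor gene Adipor1 stood at 9.59 log2, Igf1r at 9.51, Insr, the insulin receptor gene, at 9.38 and Adipor2 at 9.22.

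Glp1r, the receptor for the gut hormone GLP-1, stood at 9.02 log2 (percentile 80.5) and Calcr, the calcitonin and amylin receptor, at 8.71 (percentile 75.7). Melanocortin receptors, the targets of Pomc peptides, stood at 8.01 log2 for Mc3r and 7.76 for Mc4r (percentiles 63.5 and 58.9). Ghsr, the ghrelin receptor gene, stood at 7.54 log2 (percentile 55.4) and Lepr, the leptin receptor gene, at 7.22 (percentile 50.2). Under the off-tissue value were Nmur1 (6.04 log2), Npffr2 (5.95), Gipr (5.92), Galr2 (5.60), Glp2r (5.12) and Npy4r (4.08). Brs3 at 6.32 log2 and Npy5r at 6.26 lay close to it.

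Among neuroendocrine and nuclear receptors, 28 of 35 measured genes were above the off-tissue value (80%, beside 66.1% over all genes). Their median was 7.63 log2 (percentile 56.7). Thra, a nuclear thyroid hormone receptor gene, stood at 11.85 log2 (percentile 99.3), whereas its relative Thrb stood at 7.88 (percentile 61.1). Adcyap1r1, the PACAP receptor gene, stood at 10.57 log2 (percentile 95.9) and Oprl1, the nociceptin receptor gene, at 9.46. The corticosteroid receptor genes Nr3c1 and Nr3c2 stood at 8.57 and 8.21 log2. Among sex steroid receptors, Pgr stood at 8.10 log2, Esr1 at 7.56 and Esr2, under the off-tissue value, at 5.58. The vasopressin receptor genes Avpr2 (6.0 log2) and Avpr1b (5.32) and the releasing-hormone receptor Gnrhr (4.52), best known from kidney and pituitary, were also under it.

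The receptors of the leading peptides spread over the range of the array. The 10 peptide genes of the top 10% were set beside 24 receptor genes of the lists, in pairs chosen by hand. The pairs left out Npy4r (4.08 log2), which is also listed. Of the 24, 1, Adcyap1r1, was in the top 10% (4.17%, beside 10% over all genes). Under the array's median lay 13 of the 24 (54.2%, beside 50% by construction). For orexin, the receptor genes Hcrtr2 and Hcrtr1 stood at 7.31 and 7.08 log2 beside 11.46 for Hcrt. The receptor Mchr1 stood at 7.98 log2 beside 11.40 for Pmch. Somatostatin receptor genes ranged from Sstr4 at 8.80 log2 and Sstr2 at 8.68 to Sstr5 at 5.88, beside 11.76 for Sst. Oxtr, the oxytocin receptor gene, stood at 6.81 log2 (percentile 44.1) and Avpr1a at 6.57 (percentile 40.5). These are values side by side of different probe sets, so no ratio is drawn from them.

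**Figure D2:**
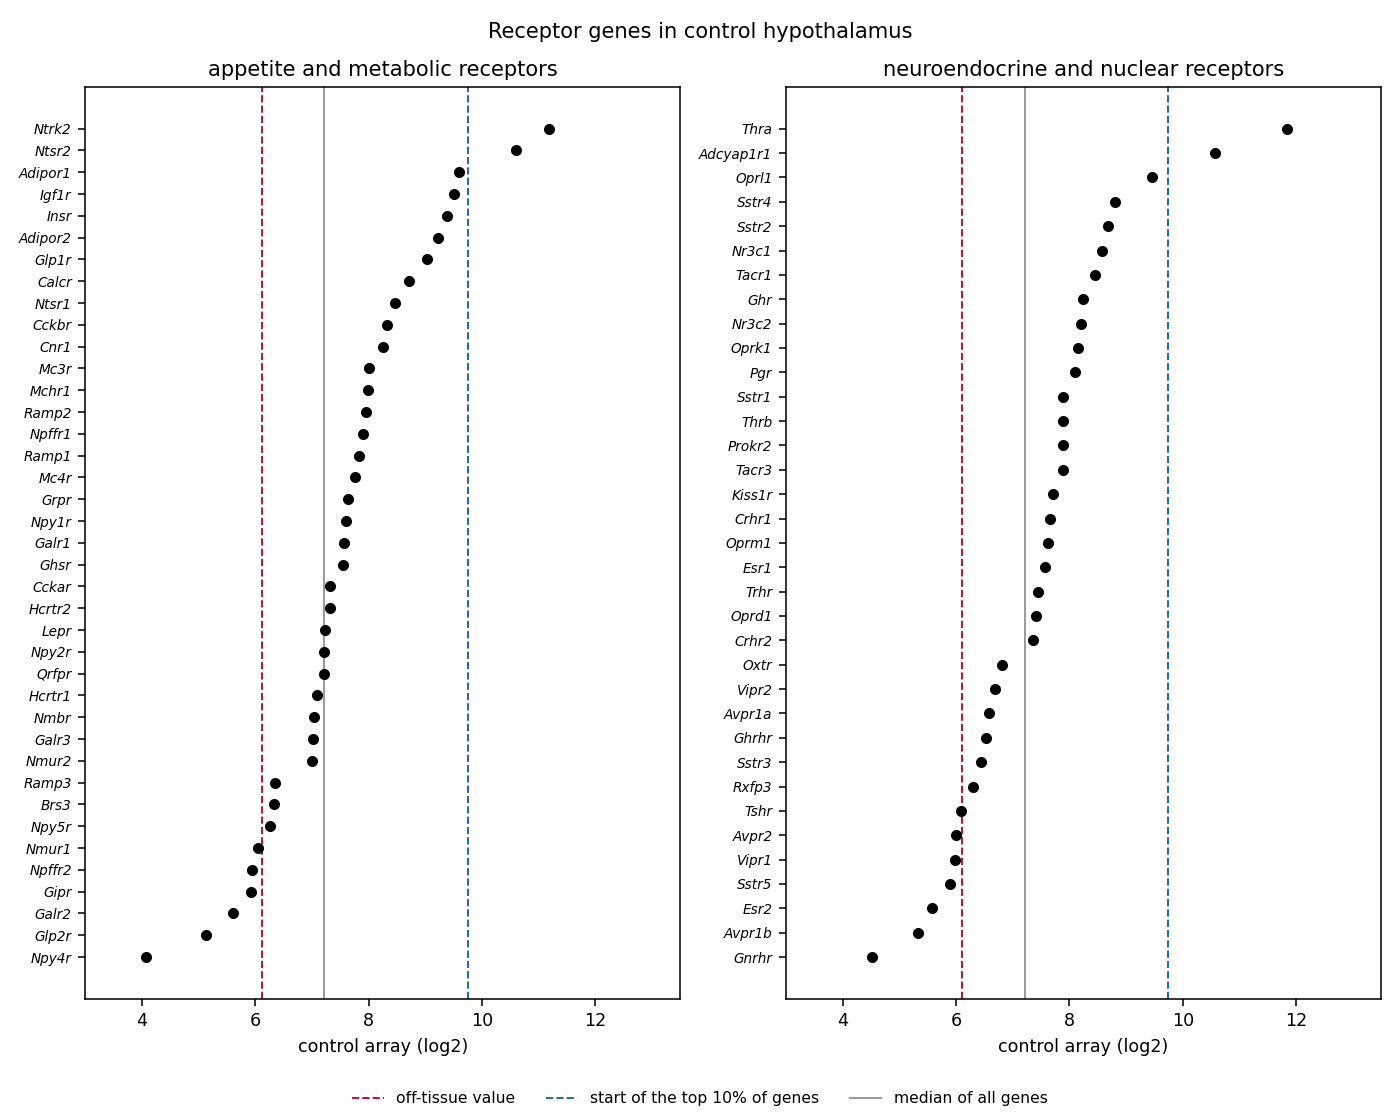
Control-array values (x axis, log2, 1 point a gene) of 39 appetite and metabolic receptor genes and 35 neuroendocrine and nuclear receptor genes. Ntrk2, Ntsr2, Thra and Adcyap1r1 are the 4 points right of the top-10% line, and most others lie between 6 and 9 log2.

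Receptors for fast transmitters differed from this picture. Of 38 measured glutamate, GABA and glycine receptor genes, 36 lay above the off-tissue value (94.7%, beside 66.1% over all genes). In the top 10% stood 22 (57.9%, beside 10%), and the median was 9.92 log2 (percentile 91.6). Gabbr1 and Gabbr2, the subunits of the metabotropic GABA receptor, stood at 11.86 and 11.45 log2. Gabra3, an alpha subunit of the GABA-gated chloride channel, stood at 11.57 log2 (percentile 99) and the AMPA receptor gene Gria1 at 11.50 (percentile 98.9). Gabrq, the theta subunit known from hypothalamus and brainstem aminergic nuclei, stood at 10.56 log2 (percentile 95.9). Subunits typical of cerebellar granule cells were low, with Gabrd at 6.10 log2 and Gabra6 at 4.41, both under the off-tissue value. Of 43 listed genes, 5 were not analysed here.

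Monoamine, histamine and muscarinic receptor genes stood lower, at a median of 7.48 log2 (percentile 54.2) over 28 measured members. Htr2c, the serotonin receptor on Pomc neurons, was the 1 member of the top 10%, at 9.92 log2 (percentile 91.6). Drd2 stood at 9.52 log2, Htr2a at 9.44, Chrm2 at 9.42, the histamine autoreceptor gene Hrh3 at 9.24 and Htr1b at 9.07. Htr5b (5.33 log2) and Htr2b (4.34) were under the off-tissue value, and Drd4 (6.22), Htr1f and Htr3a (6.25 each) lay near it. Of 35 listed genes, 7 adrenergic receptor genes were not analysed here.

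Among transmitter genes, 5 of 16 measured members were in the top 10% (31.2%, beside 10% over all genes), all of GABA, glutamate or dopamine. Slc18a2, Ddc and Slc32a1 of this list lay outside it, at 9.59, 9.17 and 8.55 log2 (percentiles 88.3, 82.7 and 73.0). Gad2 and Gad1, which make GABA, stood at 11.03 and 10.59 log2 (percentiles 97.8 and 96.1). Slc17a6, the vesicular glutamate transporter of diencephalic neurons, stood at 10.99 log2 (percentile 97.7). Its cortical counterpart Slc17a7 stood at 9.10 (percentile 81.7) and Slc17a8 at 5.82, under the off-tissue value. Th, the rate-limiting enzyme of dopamine synthesis, stood at 10.53 log2 (percentile 95.7) and Slc6a3, the dopamine transporter gene, at 10.76 (percentile 96.9). Hdc, the histamine-making enzyme of tuberomammillary neurons, stood at 8.28 log2 (percentile 68.3). Cholinergic and glycinergic genes were low, with Slc18a3 at 7.04 log2, Slc5a7 at 6.79, Slc6a5 at 5.95 and Chat at 5.60. The last pair was under the off-tissue value.

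Transcription factor genes that pattern hypothalamic nuclei were read next. Of 23 measured genes, 22 lay above the off-tissue value, or all but Rax (95.7%, beside 66.1% over all genes). The list had its median at 7.40 log2 (percentile 52.9). Among lists of other brain regions the share was 100% for thalamus, 90.9% for striatum and 90% for cortex and hippocampus. For cerebellum it was 75% and for midbrain and hindbrain 66.7%. Median percentiles of those lists were 55.8, 77.2, 57.2, 60.8 and 35.7, in that order. Such a share or median was thus not particular to the hypothalamic list. Peg3, which is imprinted and widely active in hypothalamic neurons, stood at 11.95 log2 and Arnt2, the partner of Sim1 in neuroendocrine development, at 10.14. Fezf1, a ventromedial nucleus gene, stood at 9.53 log2, Nkx2-1, which specifies the ventral hypothalamus, at 8.56, Dlx1 at 8.43 and Otp, needed for neuroendocrine peptide neurons, at 8.24. Barhl1 at 6.85 log2, Nhlh2 at 6.82, Hmx3 at 6.48 and Rax, the tanycyte and retinal field gene, at 5.87 were the lowest. With the highest panel value, 7.13 log2, as the limit, 15 of the 23 lay above it, beside 51.2% over all genes. The rest lay inside the range of the off-tissue panel.

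Glial genes stood high for astrocytes and myelinating cells and in the middle for microglia. Over the 4 glial lists, 55 of 59 measured genes lay above the off-tissue value (93.2%, beside 66.1% over all genes). In the top 10% stood 23 of them, 39% beside 10% over all genes. All 19 measured astrocyte genes were above the off-tissue value and 13 in the top 10%, with a median of 11.07 log2 (percentile 97.9). Sparcl1, a secreted synapse-organising protein gene, stood at 12.90 log2 (rank 17), Ndrg2 at 12.78 and the glycolytic gene Aldoc at 12.68. Apoe, the lipid carrier, stood at 12.27 log2, Glul, which makes glutamine, at 11.95, and the glutamate transporter genes Slc1a3 and Slc1a2 at 11.63 and 11.62. Agt, the angiotensin precursor made by astrocytes, stood at 11.37 log2 (percentile 98.6). Gfap, the intermediate filament gene often used to mark astrocytes, stood lower in the list, at 9.17 log2 (percentile 82.8). The lowest 3 members were S100b at 8.99 log2, Sox9 at 8.97 and Aldh1l1 at 8.19.

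Myelin genes had 10 of 14 measured members in the top 10% (71.4%, beside 10% over all genes). Their median was 10.46 log2 (percentile 95.4). Mbp, myelin basic protein, stood at 11.59 log2 (percentile 99), Trf, the iron carrier transferrin, at 11.20, Cnp at 11.17 and the tight junction gene Cldn11 at 10.79. Qk, an RNA-binding regulator of myelination, stood at 11.75 log2, but its 3 probe sets ranged down to 6.64. Ugt8a at 9.45 log2, Ermn at 8.94, Aspa at 8.41 and Opalin, a late myelin gene, at 7.60 closed the list. Precursor genes stood lower and close together, with all 8 between Pdgfra at 9.08 log2 and Cspg4 at 7.77, the latter also a pericyte gene.

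Microglial genes had 14 of 18 measured members above the off-tissue value, 77.8% beside 66.1% over all genes, and 0 in the top 10%, with a median of 7.17 log2 (percentile 49.3). Olfml3 stood at 9.42 log2, the complement gene C1qb at 9.19, the growth factor receptor gene Csf1r at 8.82 and the fractalkine receptor gene Cx3cr1 at 8.59. Tmem119 stood at 7.89 log2 and P2ry12, the nucleotide receptor of resting microglia, at 6.65. The 3 subunits of the same complement protein spread widely, with C1qc at 8.20 log2 and C1qa at 7.19. Mrc1 (5.84 log2) and Cd163 (4.98), markers of macrophages around vessels, were under the off-tissue value, with Aif1 (5.42) and Fcrls (5.02). Lyve1, a further such macrophage marker of the list, stood above it at 6.79 log2 (percentile 43.8).

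Ventricle-lining cells gave an uneven picture. Tanycytes are radial glia of the third ventricle floor that pass hormones between blood, fluid and neurons. Fabp7, a fatty acid-binding protein of tanycytes, astrocytes and radial glia, stood at 12.30 log2 (percentile 99.7), Vim, an intermediate filament gene also of vessels, at 11.17 and Cd59a at 10.27. Gpr50, an orphan receptor of tanycytes, stood at 9.81 log2 (percentile 90.6). Crym stood at 7.70 log2, Dio2, which activates thyroid hormone, at 7.25 and Nes at 6.29. Rax and Adm lay under the off-tissue value. Genes of ependymal cells were lower, with 8 of 10 above the off-tissue value (80%, beside 66.1% over all genes). Their median was 6.76 log2 (percentile 43.3), and Foxj1, the regulator of motile cilia, stood at 6.78. The dynein gene Dnah12 stood at 6.75 log2, with a second probe set at 5.73.

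Vessel genes all lay above the off-tissue value, in 11 of 11 endothelial and 9 of 9 mural genes, beside 66.1% over all genes. In the top 10% stood 1 endothelial gene (9.09%) and 1 mural gene (11.1%), near the 10% over all genes. Slc2a1, the glucose transporter of the blood-brain barrier and of astrocytes, stood at 11.36 log2 (percentile 98.6). The barrier genes Slco1a4, Cldn5 and Abcb1a stood at 9.09, 8.73 and 8.45 log2, and Kdr, the lowest endothelial gene, at 6.53. In the mural list, Vtn stood at 10.43 log2, Acta2 at 9.30 and Rgs5 at 8.48, with Kcnj8 the lowest at 6.80.

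**Figure D3:**
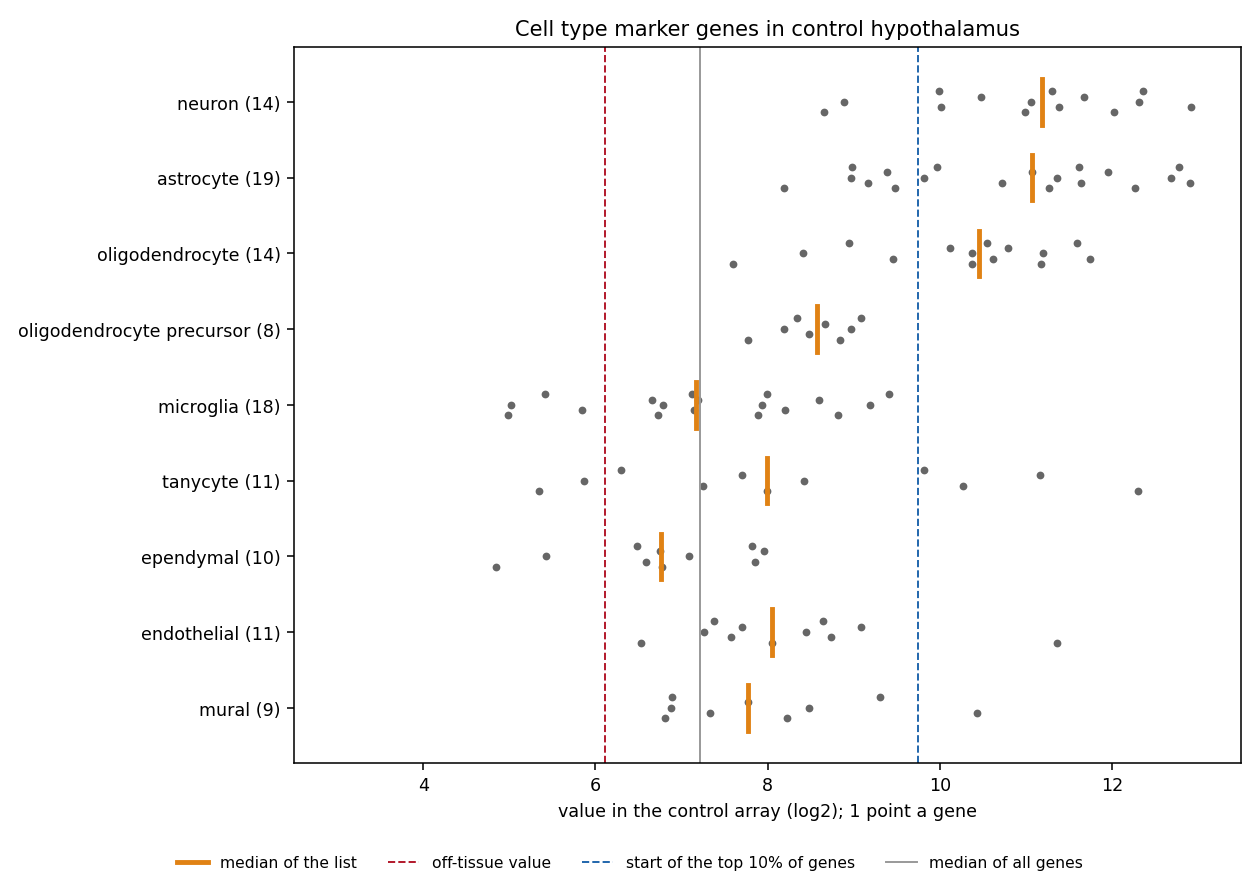
Control-array values (x axis, log2) of marker genes in 9 cell type lists, with 1 point a gene, small vertical offsets that carry no value, and the number of measured genes in brackets. The list medians of neurons (11.18), astrocytes (11.07) and oligodendrocytes (10.46) lie right of the top-10% line, and those of microglia (7.17) and ependymal cells (6.76) left of the array median.

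General neuron markers had their median at 11.18 log2 (percentile 98.2). In the top 10% lay 12 of 14 (85.7%, beside 10% over all genes). Snap25, a synaptic fusion protein gene, stood at 12.91 log2 (rank 16), Stmn2 at 12.36 and Syt1 at 12.31. The lowest were Elavl4 at 8.89 log2 and the neurofilament gene Nefm at 8.66.

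Genes of neighbouring tissues lay lower than neuron and glial genes as a group, though their lists differed. Above the off-tissue value were 64 of 82 measured members (78%, beside 66.1% over all genes and 74% of peptide genes). In the top 10% stood 5 (6.10%, beside 10%). With the highest panel value as the limit, the first share was 50% beside 51.2% over all genes. Those 5 were Ptgds, Penk, Slc6a3, Igf2 and Dcn, and at least Penk, Slc6a3 and Ptgds are also known from hypothalamic cells. Pituitary genes stood low, with 5 of 9 measured members (55.6%) above the off-tissue value and a median of 6.13 log2. Of the 6 hormone genes among them, 3 were above it, and the other members were Ghrhr (6.52 log2), Tbx19 (6.20) and Gnrhr. Prl, the prolactin gene, stood at 3.95 log2 (percentile 7.12), Tshb at 4.60, Fshb at 5.82 and Gh, the growth hormone gene, at 6.13 (percentile 34.1). Prl and Gh are the most abundant products of the anterior lobe. Cga, the common subunit of glycoprotein hormones, stood at 8.60 log2 (percentile 74) and Lhb at 7.08. Beyond Cga, no hormone gene of the lobe reached the array's median.

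Choroid plexus genes had 6 of 11 measured members above the off-tissue value (54.5%, beside 66.1% over all genes). Their median was 6.43 log2 (percentile 38.4). Ttr, the thyroid hormone carrier that dominates this epithelium, stood at 7.66 log2 (percentile 57.2) and Kl at 7.38. The span of Ttr overlaps that of Gm16090 in the reference table. Folr1 (6.02 log2), Slc4a5 (5.78), Aqp1 (5.72), F5 (5.12) and Kcne2 (4.77) were under the off-tissue value. Kcnj13 stood apart at 9.18 log2 (percentile 82.8), and its span overlaps that of Gigyf2 in the reference table. Whether that probe set reads Gigyf2 was not tested.

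Midbrain and hindbrain genes lay mostly under the array's median, with Slc6a3 far above the rest. Of the 12 measured, 8 were above the off-tissue value (66.7%, near the 66.1% over all genes). Tph2 and Slc6a4, of serotonin neurons, stood at 6.28 and 6.19 log2 and Dbh and Slc6a2, of noradrenergic neurons, at 5.15 and 5.57. The midbrain dopamine gene Pitx3 stood at 6.63 log2, En1 at 7.02 and the hindbrain patterning genes Hoxa2 and Hoxb5 at 4.96 and 4.75. Of the 12 measured members, 10 were under the array's median. Lmx1b, of midbrain dopamine and serotonin neurons, stood at 7.72 log2 (percentile 58.2), above the median. The part of midbrain tissue in the Slc6a3 and Th values was not tested.

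Forebrain neighbours were less clear. Above the off-tissue value lay 10 of 11 striatal genes (90.9%), 9 of 10 cortical genes (90%) and 9 of 9 thalamic genes (100%). Over all genes the share was 66.1%. For striatal genes the median was 8.81 log2 (percentile 77.2), Penk and Drd2 stood at the head, with Pde10a at 8.94, Foxp1 at 8.86, Rgs9 at 8.82 and Rasd2 at 8.81. Ppp1r1b, the phosphatase inhibitor that defines striatal projection neurons, stood at 7.54 log2 and Drd1 at 7.45. Cortical genes ranged from Nrn1 at 9.64 log2 and Slc17a7 at 9.10 down to Tbr1 at 6.33 and Neurod6 at 4.26. Thalamic genes were led by Ntng1 (9.50 log2, with a second probe set at 7.19), Tcf7l2 (9.30) and Rgs16 (9.05), with Prkcd at 7.40 and Gbx2 at 6.45. The cerebellar list had its median at 7.86 log2 (percentile 60.8), and 5 of 8 members lay over the array's median. Cbln1 stood at 9.73 log2, Zic1 at 8.87, Barhl2 at 8.38, Pvalb at 8.03 and Car8 at 7.68, whereas the Purkinje cell gene Pcp2 stood at 6.19, Cbln3 at 6.0 and the granule cell gene Gabra6 at 4.41. The share of such tissue in the dissection was not tested, since several members are active in the hypothalamus too.

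Meningeal genes had 11 of 12 measured members above the off-tissue value (91.7%, beside 66.1% over all genes). Their median was 8.05 log2. Ptgds, prostaglandin D synthase of meninges and oligodendrocytes, stood at 12.83 log2 (rank 18), Igf2 at 10.38, Dcn at 10.08 and the transporter Slc6a13 at 9.64. The collagen genes Col1a2, Col1a1 and Col3a1 stood at 8.12, 7.98 and 6.77 log2, and Lum at 5.54. Blood genes were lower, with Alas2 at 7.09 log2, Ppbp at 7.01 and the neutrophil genes S100a9 and S100a8 at 5.55 and 3.97. Haemoglobin genes share their probe sets and could not be named singly. Among lymphocyte genes, 2 of 7 (28.6%) were above the off-tissue value, Cd3e at 6.33 log2 and Cd8a at 6.23.

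**Figure D4:**
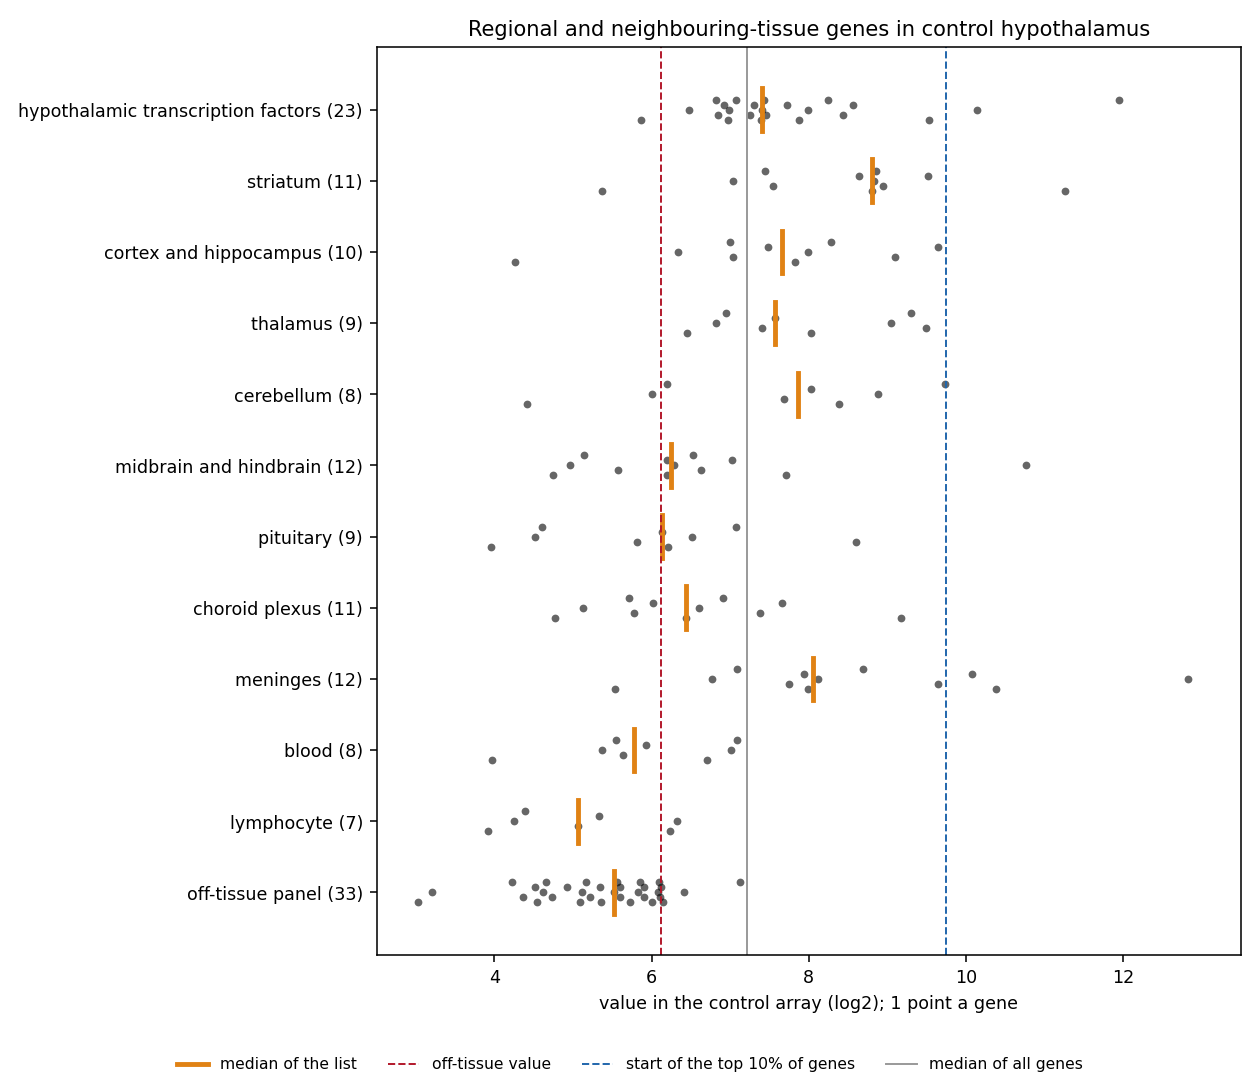
Control-array values (x axis, log2) of regional, neighbouring-tissue, blood and off-tissue genes, with 1 point a gene, small vertical offsets that carry no value, and the number of measured genes in brackets. The medians of blood (5.78) and lymphocyte genes (5.06) lie on the off-tissue side of 6.11 and that of the pituitary list (6.13) beside it, whereas the striatal median is 8.81.

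The 20 highest values ran from the small nuclear RNA gene Rn7sk at 14.04 log2 to the sodium pump subunit Atp1b1 at 12.79. Baiap2l1, at 13.79 log2, and the Y RNA gene Rny3, at 13.51, came next to Rn7sk. The protease inhibitor gene Cst3 followed at 13.41 log2, the neuronal calcium sensor gene Vsnl1 at 13.39, the mitochondrially encoded COX2 at 13.38, Rtn3 at 13.21 and Actb at 13.20. Of the 20, Rps6, Eef1a1, Hspa8 and Fth1 (13.06, 12.97, 13.05 and 12.92 log2) serve all cells. Gnb1, Scd2, Mt2, Ckb and the already named Snap25, Sparcl1 and Ptgds made up the others. No neuropeptide or peptide receptor was among these 20.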

How the data were processed

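Total RNA of whole hypothalamus was hybridized to Affymetrix whole-transcript arrays, with an RNA integrity number above 8 per the labels. The authors deposited log2 expression values made with RMA, per the submitters' processing notes, which subtracts background, brings all arrays to a common distribution and combines the probes of each probe set. For its version, the sources used here say nothing. No value was missing among 35556 probe sets. Of these 21789 had exactly 1 symbol, 1621 had several or none and 12146 were not listed in the annotation used. By Entrez number, 21698 of the former matched RefSeq's GRCm38.p6 table and 91 did not, and 0 symbols changed. For genes with several probe sets, the one of the highest mean over the 4 arrays was used. The 33 lists held 567 genes, of which 520 were analysed. Members and lists were chosen with earlier results of these data known. Every measured peptide gene was named, and in each other list up to the 6 highest and 4 lowest members, the 20 highest genes and members whose probe sets differed by 1 log2, with some further members chosen after their values were seen. Alternatives were other probe set rules, protein-coding genes only, ranks over all 4 arrays and other limits. No test was made, since 1 array has no replicate, and precision is limited by the number of arrays. The ranking was tested on simulated data. Software was matplotlib 3.10.9, pandas 2.3.3 and numpy 2.4.6, run in Python 3.11.15.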

Additional observations from a re-analysis of the deposited data

How the results depend on the processing

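Counts for the 5 gene groups (peptides, peptide and hormone receptors, transmitter receptors, glia and neighbouring tissues) stayed within 1.5 times under each of the other probe set rules, with protein-coding genes only and with ranks over the 4 arrays. With the highest panel value, 7.13 log2, in place of its 90th percentile, 22 peptide genes (44%) and 41 genes of neighbouring tissues (50%) lay above it, beside 51.2% of all genes. With the top 5% of genes in place of the top 10%, 4 peptide genes, 13 transmitter receptor genes and 3 genes of neighbouring tissues remained inside. With the 95th percentile of olfactory receptor genes, 5.71 log2, chosen after seeing the data, 43 peptide genes lay above it, with Galp, Npb, Prok2, Ucn, Ucn3 and Vip added but not Crh. Ranked by the mean of the probe sets, Qk stood at percentile 75.9 in place of 99.2, and by its lowest probe set at 42.5. Over 321 named genes, ranks by the mean of the 4 arrays moved by a median of 1.03 percentile points. That of Gh moved most, from 34.1 to 57.2, so its low rank is that of the control array. No paired analysis was possible because each group was 1 array.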

Other observations

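Circadian clock genes, ion channels and imprinted genes were not part of the description above, and each list had its median over that of the array. All 16 clock genes lay above the off-tissue value, beside 66.1% over all genes, with a median of 8.96 log2 (percentile 79.5). In the top 10% stood 2 of them (12.5%), near the 10% over all genes. Nr1d1 and Nr1d2, the repressors of the second clock loop, stood at 10.83 and 10.18 log2. Clock stood at 9.72 log2, Per1 at 9.48, Per2 at 8.20, Arntl at 7.82 and Cry1, the lowest, at 7.32. Of 27 measured sodium, calcium and potassium channel genes, 7 were in the top 10% (25.9%, beside 10% over all genes). Their median was 9.40 log2 (percentile 85.9). Scn2a, a neuronal sodium channel gene, stood at 12.50 log2, with its 14 probe sets ranging down to 8.94, and Kcna2 at 10.54, with a second probe set at 8.60. Scn9a, a further sodium channel gene, stood at 8.74 log2, with a second probe set at 7.53. The lowest was Kcnj11, the pore of the ATP-sensitive potassium channel of glucose-sensing neurons, at 7.02.

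Imprinted genes, which are active from 1 parental copy, formed a list added after the data were seen. Of 22 measured, 20 lay above the off-tissue value and 13 in the top 10%, beside 66.1% and 10% over all genes. Their median was 10.16 log2 (percentile 93.4). Nnat and Ndn, the latter in the Prader-Willi region, ranked 37 and 40 on the array at 12.55 and 12.53 log2. Peg3 was named above with the transcription factors. Peg10 stood at 12.22 log2, Impact at 12.19, the long non-coding RNA gene Meg3 at 12.10, Dlk1 at 10.60 and Magel2 at 8.46. Cdkn1c (6.81 log2), Dio3 (5.13) and Mkrn3 (4.80) stood lowest, the last pair under the off-tissue value.

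Cytosolic ribosomal protein genes had 33 of 61 in the top 10% (54.1%, beside 10% over all genes). Nduf genes of respiratory complex I had 17 of 43 there (39.5%). MicroRNA genes had 5 of 300 in the top 10% (1.67%), led by Mir341 at 11.13 log2. Small nucleolar RNA genes had 6 of 54 (11.1%), near the 10% over all genes. Baiap2l1, the second highest gene of the array at 13.79 log2, codes for an adaptor protein of epithelia, and its span overlaps those of Bri3, Gm15708 and Dmrt1i in the reference table.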
